A study of Homo sapiens with 84 samples.

Results

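Glucose uptake, glycolysis and the response to low oxygen were followed through 35 genes in 2 squamous carcinoma lines treated with EGF or with the ectodomain of EpCAM. The 35 genes were chosen by symbol, without a rule on their values but with earlier results of these data known. All 35 were found among the 58395 gene rows of the count files. They comprise 2 glucose transporters, 10 genes of upper glycolysis, 6 of lower glycolysis, 4 of pyruvate and lactate handling, 2 carbonic anhydrases, 2 secreted targets of hypoxia-inducible factor (HIF) and 9 other HIF targets. After removal of genes with low counts, 34 remained for testing in Kyse30 and 33 in FaDu. CA9, a carbonic anhydrase of the cell surface, had at most 5 counts in any library and was not tested. SLC2A3 was not tested in FaDu cells, where its highest level was 0.497 CPM (the count scaled to a common library size).

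Kyse30 is a line from an esophageal squamous cell carcinoma and FaDu a line from a squamous carcinoma of the hypopharynx. All groups, controls included, were serum-starved before treatment and kept without serum during it. Cells were collected untreated at 0, 6 and 72 h, and at 6 and 72 h with EGFlow (1.8 nM), EGFhigh (9 nM), Fc, EpEX (the ectodomain of EpCAM fused to Fc) or EGF + EpEX. The EGF dose of the combination is not in the sample labels, and the methods of the study give it as the high one. Untreated cells served as control of EGF, and Fc as control of EpEX and of the combination. The 3′ ends of transcripts were sequenced in 43 Kyse30 libraries (9 groups of 3 and 4 groups of 4) and in the 20 FaDu libraries of replicates 3 and 4 (7 groups of 2 and 6 groups of 1). Nothing in the labels says that replicates are separate cultures, so the p-values measure the spread between these libraries, which may be technical.

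Glycolysis splits glucose into pyruvate in the cytosol, and lactate dehydrogenase turns pyruvate into lactate, which leaves the cell through monocarboxylate transporters. HIF is a transcription factor whose alpha subunit is hydroxylated and degraded when oxygen is present. When oxygen falls it binds hypoxia-response elements near many of these genes, and carcinomas of squamous epithelium are known for high glucose uptake.

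Total counts on genes ranged from 1944948 to 11759799 per Kyse30 library (median 6304338) and from 6217938 to 12442349 per FaDu library (median 9259762). A floor of 3 counts corresponded to 0.255 to 1.54 CPM in Kyse30 and to 0.241 to 0.482 CPM in FaDu cells, which covers counting error only. The epithelial markers CDH1 and EPCAM were present in every library, with medians of 189 and 212 CPM in Kyse30 and 43.6 and 380.0 CPM in FaDu cells, whereas the keratin KRT5 had a median of 2.10 CPM in Kyse30 and 205 CPM in FaDu cells. Of 5 leukocyte markers, PTPRC, CD3E, LST1 and MS4A1 had a median of 0 CPM in both lines and CD68 one of 0.520 and 0.711 CPM. Of 4 endothelial markers, PECAM1 and KDR had a median of 0 CPM in both lines and CDH5 one of 1.82 and 4.46 CPM, and of 6 fibroblast markers, DCN and LUM had a median of 0 CPM in both lines and COL1A1 one of 14.1 and 8.71 CPM. The 21 FaDu libraries of replicates 1 and 2 stood apart, with a median Spearman ρ of 0.839 to those of replicates 3 and 4 across 19519 genes, against 0.958 within replicates 3 and 4. The median was 0.848 within replicates 1 and 2. It was 0.870 between FaDu replicates 3 and 4 and Kyse30, higher than between both FaDu sets. With all 41 FaDu libraries in the fit, no gene was called in any of the 5 comparisons within FaDu cells by edgeR's quasi-likelihood test, so every FaDu call given here, of a member or of another gene, was lost. In Kyse30, replicate 4 of EpEX at 72 h stood apart for the genes described here, and results that it touches are also given without it. It was left out after it had been seen to be high for these same genes. Member calls gained without it are therefore no separate support. Fewer cells of a type and less RNA per cell cannot be told apart in such bulk samples.

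GAPDH, which oxidizes glyceraldehyde 3-phosphate, had the highest median level of the members (2726 CPM in Kyse30, 1804 CPM in FaDu), followed by the enolase ENO1 (1754 and 1310.1 CPM). Only 3′ ends were counted, so levels in CPM do not depend on transcript length. The order of the levels is uncertain where reads are shared with near-identical copies, as given in the next paragraph. PKM, the pyruvate kinase of most tissues, had a median of 550.4 and 517 CPM, and LDHA, the lactate dehydrogenase subunit that favors lactate, 425 and 201 CPM. Of the lactate carriers, SLC16A1 (MCT1) had a median of 358 CPM in Kyse30 and 652 CPM in FaDu, and SLC16A3 (MCT4, an exporter and HIF target) 311 and 153 CPM. Medians were close in both lines for the glucose 6-phosphate isomerase GPI (351 and 359 CPM) and the glucose transporter SLC2A1 (119 and 129.9 CPM). The triose isomerase TPI1 stood at 318 and 261 CPM and the kinase PGK1 at 217 and 176 CPM.

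Several members were near the limit of detection. ALDOA, the aldolase of muscle and many other tissues, had medians of 0.357 and 0.259 CPM, and the mutase PGAM1 4.39 and 4.50 CPM. Reads that match several places were not counted, so the levels of GAPDH, PGK1, ENO1, ALDOA, TPI1, PGAM1, PKM and LDHA, which have near-identical copies or overlapping genes, are uncertain. The isoforms ALDOC (1.06 CPM) and ENO2 (1.52 CPM) were low in Kyse30, while ALDOC had a median of 6.05 CPM in FaDu. CA12, a carbonic anhydrase anchored in the plasma membrane, ranged from 0.134 to 5.04 CPM in Kyse30 and was called in no comparison.

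Promoter sequence from RefSeq (GRCh38.p14) was at hand for 30 of the 35 genes, as windows of 300 bases around the start of the gene. SLC2A3, NDRG1, VEGFA, SLC16A1 and BNIP3L had no window, so nothing is said of their promoters. ACGTG and GCGTG, the core letters of the hypoxia-response element, were searched on both strands, where CACGTG counts once on each strand. ACGTG was found in 12 of the 30 windows (40%) against 21.6% of 27305 promoter windows of all genes, GCGTG in 14 (46.7% against 36.3%) and either in 21 (70% against 48.4%). Known HIF targets are among the members by choice, and the windows of all genes were not matched for base composition. The difference in shares was not tested. The windows below belong to 5 members with a window and a match, taken by the number of comparisons that follow in which they were called. PKM was called in 3, LDHA in 2 and ADM, ALDOC and BNIP3 in 1 each. GAPDH, also called in 1 and with a match, came later in the alphabet. NDRG1 and SLC2A3 were called in 6 each but had no window. The windows show how the matches differ between members. Capitals mark the matches, which are letters only and no evidence of binding. The windows of PFKP and SLC16A3 had no match, which says only that these letters are not in those windows. PKM (chr15:72231141-72231440, minus strand) had 1 match, LDHA (chr11:18394313-18394612, plus strand) 6, ADM (chr11:10304823-10305122, plus strand) 1, ALDOC (chr17:28576846-28577145, minus strand) 5 and BNIP3 (chr10:131981874-131982173, minus strand) 6. Each is printed 5′ to 3′ on the strand of its gene.
PKM: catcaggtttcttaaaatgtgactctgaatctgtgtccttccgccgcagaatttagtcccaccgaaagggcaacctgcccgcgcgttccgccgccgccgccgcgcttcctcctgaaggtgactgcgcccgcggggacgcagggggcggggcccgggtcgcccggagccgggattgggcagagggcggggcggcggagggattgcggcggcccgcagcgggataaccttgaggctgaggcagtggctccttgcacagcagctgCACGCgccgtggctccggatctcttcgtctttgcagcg
LDHA: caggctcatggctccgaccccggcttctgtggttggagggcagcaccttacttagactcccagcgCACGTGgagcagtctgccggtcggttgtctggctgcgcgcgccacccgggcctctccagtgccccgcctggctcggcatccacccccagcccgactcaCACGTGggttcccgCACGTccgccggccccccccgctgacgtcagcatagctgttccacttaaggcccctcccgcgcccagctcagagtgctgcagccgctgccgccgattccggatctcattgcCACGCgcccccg
ADM: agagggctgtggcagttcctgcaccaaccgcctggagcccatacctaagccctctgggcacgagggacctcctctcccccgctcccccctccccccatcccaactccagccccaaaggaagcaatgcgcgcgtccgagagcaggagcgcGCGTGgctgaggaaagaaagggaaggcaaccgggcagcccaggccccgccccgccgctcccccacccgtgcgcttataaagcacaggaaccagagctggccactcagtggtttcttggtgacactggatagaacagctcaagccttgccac
ALDOC: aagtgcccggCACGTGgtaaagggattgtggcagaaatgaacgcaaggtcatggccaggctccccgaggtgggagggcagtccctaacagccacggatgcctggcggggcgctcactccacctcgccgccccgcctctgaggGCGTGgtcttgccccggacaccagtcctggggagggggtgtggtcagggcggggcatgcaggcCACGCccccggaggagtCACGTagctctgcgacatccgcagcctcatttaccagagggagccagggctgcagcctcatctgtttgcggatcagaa
BNIP3: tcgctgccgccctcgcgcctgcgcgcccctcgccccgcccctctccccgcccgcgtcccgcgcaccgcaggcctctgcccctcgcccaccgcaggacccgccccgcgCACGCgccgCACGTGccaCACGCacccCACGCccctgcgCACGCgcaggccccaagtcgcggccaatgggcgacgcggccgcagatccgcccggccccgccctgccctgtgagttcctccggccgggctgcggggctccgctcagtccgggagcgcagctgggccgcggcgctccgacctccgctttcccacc

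A gene was called when its adjusted p in edgeR's quasi-likelihood test was at most 0.05 over all genes tested and its absolute log2 fold change (log2FC) exceeded 0.5. Whether groups overlap is given as a description of their values, mostly for genes already picked as called or by their p. It is no separate support, since groups this small often do not overlap. Across the 19 comparisons of 2 groups of 1 line, 9 members were called at least once and 10 comparisons had a called member. These were SLC2A3, NDRG1, PFKP, PKM, LDHA, SLC16A3, VEGFA, ALDOC and MXI1. GPI, TPI1, PGK1 and ENO1 were called in no comparison. For a treatment, rose and fell mean higher and lower than in its control at the same time, where the control itself may have changed with time.

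**Figure D1:**
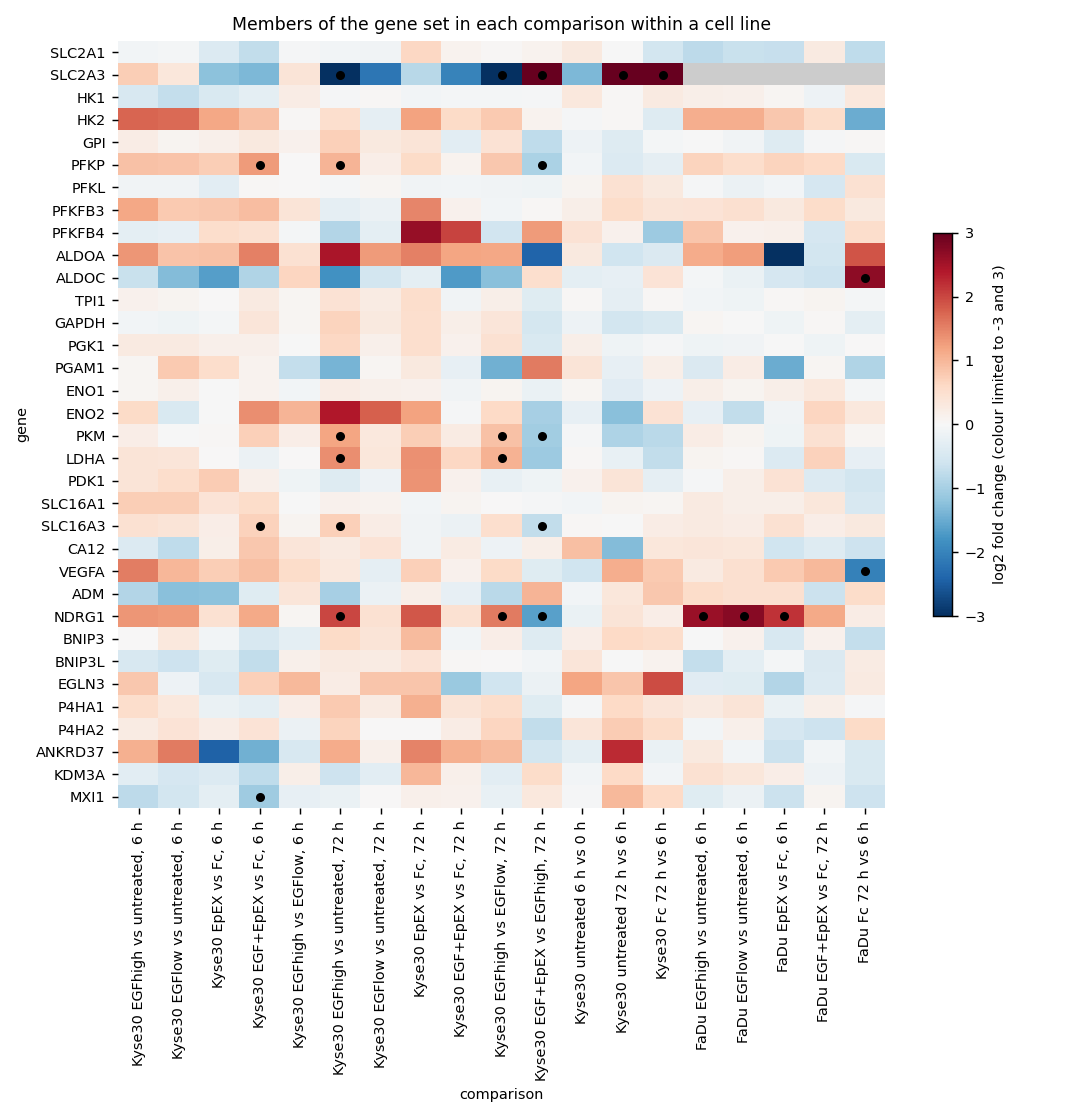
Log2FC of 34 members in the 19 comparisons of 2 groups within a line, red for higher and blue for lower in the first group named, with the color limited at -3 and 3. Black dots mark called members and grey cells the untested SLC2A3 in FaDu, and a reader should see the dots mostly in the comparisons of Kyse30 EGFhigh at 72 h and for SLC2A3 and NDRG1.

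The called member with the largest log2FC within a line was SLC2A3 (GLUT3, ENSG00000059804, chromosome 12), a glucose transporter of high affinity. In untreated Kyse30 cells its levels were 1.04, 2.73 and 0.963 CPM at 0 h and 1.04, 0.360 and 0.421 CPM at 6 h. At 72 h the untreated libraries had 25.1, 58.6 and 27.4 CPM. The untreated groups at 6 and 72 h did not overlap. SLC2A3 was the 1 member called between 72 and 6 h in untreated cells (log2FC 5.95 ± 0.98 SE, adjusted p = 0.000455 in edgeR's quasi-likelihood test), where 1.55% (0.775% higher and 0.775% lower) of all genes tested were called. The 6 h value rests on few reads, 3 to 6 counts per library and 12 in all, against 711 counts at 72 h. The ratio of the pooled levels was 62.0 (exact 95% interval 35.3 to 121, counting error only).

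Cells with Fc, which are other libraries than the untreated ones, moved in the same direction. SLC2A3 was at 4.34, 1.34 and 0.148 CPM with Fc at 6 h and at 16.1, 65.6 and 77.0 CPM at 72 h, with no overlap. It was again the 1 called member (log2FC 4.73 ± 0.89 SE, adjusted p = 0.00192 in edgeR's quasi-likelihood test), where 2.25% (1.24% higher and 1.01% lower) of all genes were called. Both calls were kept when any 1 library of the groups compared was left out.

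EGFhigh cells lacked this higher level at 72 h. SLC2A3 had 0.350, 0.178 and 0.856 CPM with EGFhigh at 72 h, 10 counts in the 3 libraries together. All 3 lay below every untreated library of that time (log2FC -6.24 ± 1.01 SE, adjusted p = 6.02e-05 in edgeR's quasi-likelihood test). The pooled level was 80.2 times as high in untreated cells (exact 95% interval 43.3 to 168, counting error only). At 6 h, EGFhigh libraries had 0.115 to 1.93 CPM, from 20 counts in all against 12 in untreated cells. The difference between the EGFhigh effects at 72 and 6 h was itself called (log2FC -6.97 ± 1.45 SE, adjusted p = 0.00635 in edgeR's quasi-likelihood test, 1.01% of all genes called, 0.495% higher and 0.515% lower). It lost the call without EGFhigh 6 h replicate 2 (log2FC -6.31, adjusted p = 0.0641).

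SLC2A3 had levels between these in the other EGF treatments at 72 h. EGFlow libraries had 5.16, 20.3, 5.08 and 2.05 CPM, and EGF + EpEX libraries 5.29, 9.44 and 24.3 CPM. Each of these 7 libraries was above the EGFhigh libraries and below every untreated library. EGFhigh was lower than EGFlow (log2FC -4.08 ± 0.95 SE, adjusted p = 0.00715 in edgeR's quasi-likelihood test), a call lost without EGFhigh 72 h replicate 3 (log2FC -3.77, adjusted p = 0.0504) and without EGFlow 72 h replicate 2 (log2FC -3.03, adjusted p = 0.0889). EGF + EpEX was higher than EGFhigh (log2FC 4.74 ± 0.98 SE, adjusted p = 0.00255), also with any 1 library left out. The near-copy SLC2A14 had at most 9 counts in any Kyse30 library.

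**Figure D2:**
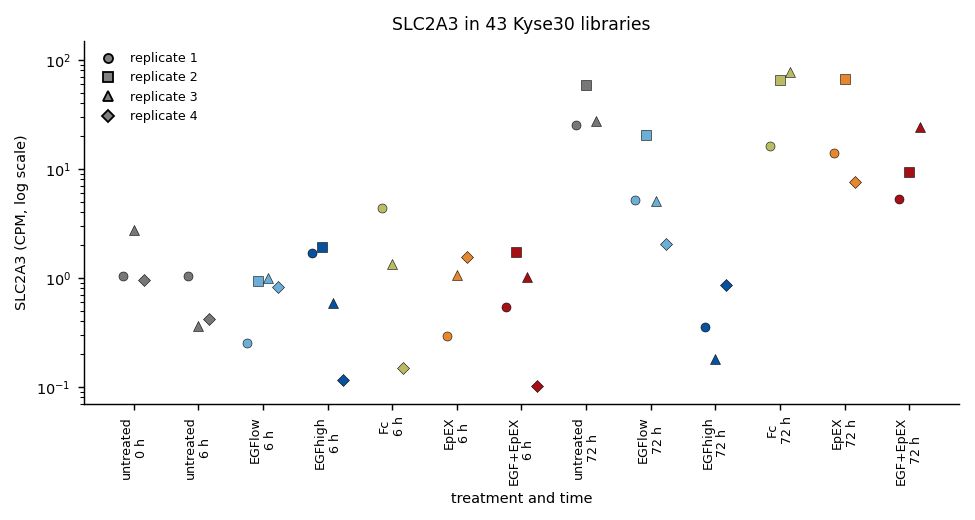
SLC2A3 level in CPM (log scale) in each of 43 Kyse30 libraries by treatment and time, with symbols for the replicate number. A reader should see low values up to 6 h, the highest values in untreated, Fc and EpEX libraries at 72 h, though not in all of them, and values under those of every other 72 h group in the 3 EGFhigh libraries at 72 h.

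SLC2A1 (GLUT1), the transporter of most tissues, was called in no comparison. Its levels in Kyse30 ranged from 43.04 to 281 CPM. With EGFhigh at 72 h, where SLC2A3 was lower than in untreated cells, SLC2A1 had 43.04, 163 and 128 CPM against 146, 87.6 and 119 CPM in untreated cells (log2FC -0.082, adjusted p = 0.943 in edgeR's quasi-likelihood test).

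EGFhigh at 72 h was the Kyse30 comparison with the most called members. Of 34 members, 5 rose and 1, SLC2A3, fell, where 6.2% (3.04% higher and 3.16% lower) of all 15350 genes were called. The summed level of the 5 leukocyte markers was 5.72 to 11.6 CPM with EGFhigh at 72 h against 0 to 1.02 CPM in untreated cells. At its highest the sum was the 11.6 CPM of CD68 alone, in EGFhigh 72 h replicate 4. LST1 and MS4A1 were at 0 in all 43 Kyse30 libraries and PTPRC in 35. PTPRC and CD3E reached at most 1.68 and 0.727 CPM in any Kyse30 library. The part of these markers in the result was not tested. The median log2FC of the members was 0.28 against -0.031 for all genes. The 5 that rose were PFKP, the platelet form of phosphofructokinase, PKM, LDHA, SLC16A3 and NDRG1, a stress-response gene induced by HIF and by other signals.

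NDRG1 had 637, 393 and 497 CPM with EGFhigh against 121, 147 and 113 CPM in untreated cells at 72 h (log2FC 2.004 ± 0.47 SE, adjusted p = 0.00569 in edgeR's quasi-likelihood test). LDHA had 1102, 836 and 671 CPM against 320.0, 326 and 347 CPM (log2FC 1.39 ± 0.34 SE, adjusted p = 0.00855). PKM had 924, 533 and 719 CPM against 328, 302 and 326 CPM (log2FC 1.19 ± 0.27 SE, adjusted p = 0.00374). For each of these 3 genes all treated libraries lay above all untreated ones. Untreated cells themselves had less PKM at 72 h than at 6 h, as given below. NDRG1, PKM and SLC2A3 were called whichever library of the groups was left out. The call of LDHA was lost without EGFhigh 72 h replicate 1 (log2FC 1.19, adjusted p = 0.0546).

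PFKP and SLC16A3 rose by less. PFKP had 212, 123 and 137 CPM with EGFhigh against 96.8, 74.8 and 60.9 CPM in untreated cells (log2FC 1.02 ± 0.27 SE, adjusted p = 0.0158 in edgeR's quasi-likelihood test). SLC16A3 had 679.9, 367 and 344 CPM against 325, 274 and 244 CPM (log2FC 0.72 ± 0.21 SE, adjusted p = 0.0322). The groups did not overlap for either gene, and EGFhigh replicate 1 was the highest treated library for all 5 genes that rose. The call of PFKP was lost without EGFhigh 72 h replicate 1 (log2FC 0.74, adjusted p = 0.145) and without untreated 72 h replicate 2 or 3 (log2FC 1.03 and 0.87, adjusted p = 0.0636 and 0.105). That of SLC16A3 was lost without EGFhigh 72 h replicate 1 (log2FC 0.34, adjusted p = 0.435) and without untreated 72 h replicate 2 or 3 (log2FC 0.74 and 0.63, adjusted p = 0.103 and 0.15).

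The other members were not called with EGFhigh at 72 h. ADM had 16.0, 38.3 and 33.3 CPM with EGFhigh against 40.2, 52.7 and 81.6 CPM in untreated cells, without overlap (log2FC -0.99, adjusted p = 0.173 in edgeR's quasi-likelihood test), and was called with the replicate number as a block (log2FC -1.12, adjusted p = 0.0363) and with no filter on low counts (log2FC -0.98, adjusted p = 0.023). GAPDH stood at a log2FC of 0.66 (adjusted p = 0.0974 in edgeR's quasi-likelihood test) and GPI at 0.72 (adjusted p = 0.114). When EpEX 72 h replicate 4 was left out of the fit, GAPDH (0.67), GPI (0.73) and P4HA1 (0.79), a subunit of collagen prolyl 4-hydroxylase, were also called (adjusted p = 0.0495, 0.0418 and 0.0479). VEGFA, the main angiogenic growth factor, had 25.0, 27.3 and 34.0 CPM with EGFhigh against 30.3, 12.4 and 26.6 CPM (log2FC 0.31, adjusted p = 0.807). Its groups overlapped.

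**Figure D3:**
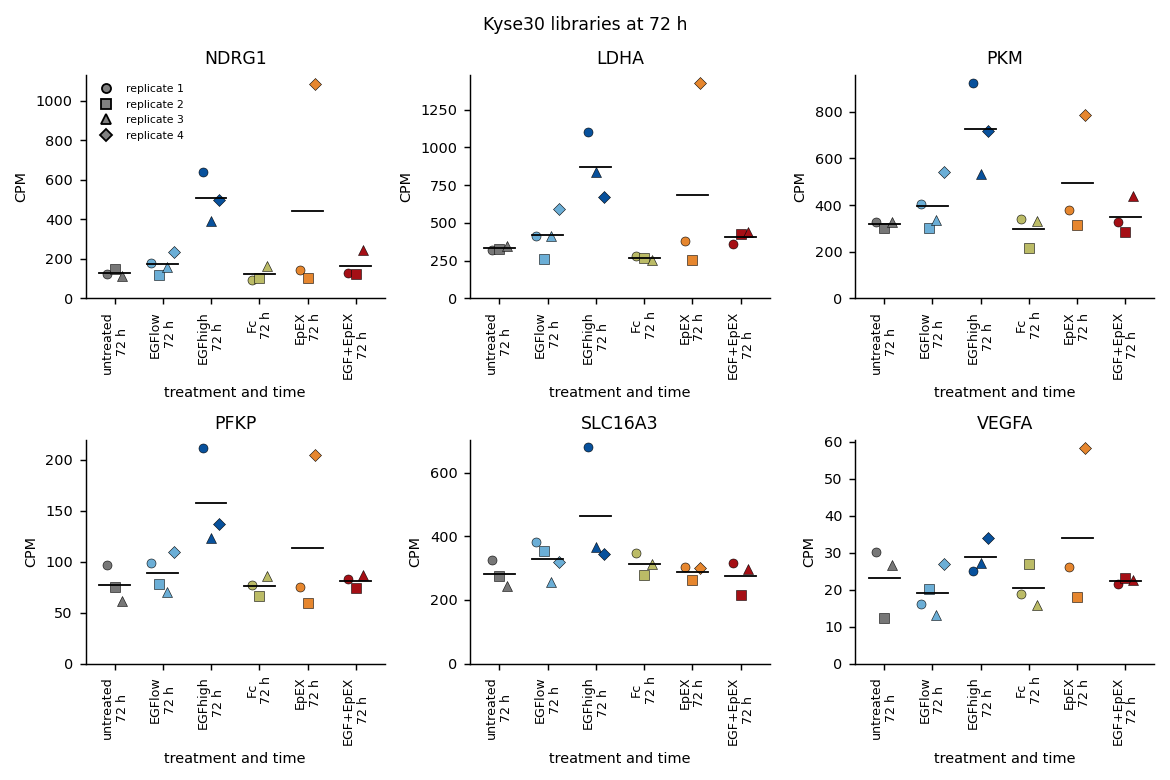
Levels in CPM of NDRG1, LDHA, PKM, PFKP, SLC16A3 and VEGFA in each Kyse30 library at 72 h by treatment, with lines at the group means and symbols for the replicate number. A reader should see the 3 EGFhigh libraries above the 3 untreated libraries in all panels but VEGFA, and replicate 4 of EpEX above replicates 1 and 2 in all panels but SLC16A3.

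EGFhigh and EGFlow differed in 3 members that were higher and 1 that was lower at 72 h, where 3.73% (2.03% higher and 1.71% lower) of all genes were called. NDRG1 was at 181, 119.8, 158 and 235 CPM with EGFlow, below all EGFhigh libraries (log2FC 1.55 ± 0.43 SE, adjusted p = 0.0275 in edgeR's quasi-likelihood test). LDHA was at 414, 258, 411 and 594 CPM, also without overlap (log2FC 1.05 ± 0.31 SE, adjusted p = 0.0481). PKM was at 404, 302, 336 and 544 CPM, and the highest EGFlow library exceeded the lowest EGFhigh library (log2FC 0.87 ± 0.25 SE, adjusted p = 0.0337). SLC2A3, given above, was the member that was lower.

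These calls depended on single libraries. That of NDRG1 was lost without EGFhigh 72 h replicate 1 or 4 (log2FC 1.36 and 1.57, adjusted p = 0.11 and 0.0556) and without EGFlow 72 h replicate 1, 2 or 3 (log2FC 1.57, 1.44 and 1.51, adjusted p = 0.0517, 0.111 and 0.069) in edgeR's quasi-likelihood test. That of LDHA was lost without EGFhigh 72 h replicate 1 or 3 (log2FC 0.84 and 1.08, adjusted p = 0.212 and 0.0954) and without EGFlow 72 h replicate 1, 2 or 3 (log2FC 1.05, 0.90 and 1.04, adjusted p = 0.0838, 0.177 and 0.0942). That of PKM was lost without EGFhigh 72 h replicate 1 or 4 (log2FC 0.66 and 0.88, adjusted p = 0.212 and 0.0704) and without EGFlow 72 h replicate 1, 2 or 3 (log2FC 0.88, 0.79 and 0.80, adjusted p = 0.0574, 0.14 and 0.0973). With EpEX 72 h replicate 4 left out of the fit, PFKP was called as well (0.83, adjusted p = 0.009).

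Compared with untreated cells, EGFlow at 72 h called no member and 0% of all genes in edgeR's quasi-likelihood test. At an unadjusted p under 0.05 there was 1 of 34 members, against 439 of 15350 genes, and DESeq2 called 0 members. The members with the smallest p were SLC2A3 (log2FC -2.16, adjusted p = 1) and ENO2, the neuronal enolase (log2FC 1.798, adjusted p = 1). ENO2 had 2.71, 2.16, 0.282 and 2.88 CPM with EGFlow and 0.0930, 1.72 and 0 CPM in untreated cells, with overlap.

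With EpEX added to EGF, the 72 h levels of 4 members were lower and that of 1, SLC2A3, was higher than with EGFhigh alone, where 3.58% (1.86% higher and 1.72% lower) of all genes were called. NDRG1 had 129, 124 and 243 CPM with EGF + EpEX (log2FC -1.62 ± 0.47 SE, adjusted p = 0.0405 in edgeR's quasi-likelihood test). PKM had 329, 285 and 437 CPM (log2FC -1.05 ± 0.27 SE, adjusted p = 0.0165). PFKP had 83.0, 74.2 and 87.0 CPM (log2FC -0.95 ± 0.27 SE, adjusted p = 0.0375) and SLC16A3 317, 215 and 299 CPM (log2FC -0.74 ± 0.21 SE, adjusted p = 0.0397). All 4 genes were below their EGFhigh libraries, given above, without overlap. LDHA had 358, 425 and 440.1 CPM and missed the threshold (log2FC -1.09, adjusted p = 0.0642). With EpEX 72 h replicate 4 left out of the fit, LDHA (adjusted p = 0.00757) and GPI (log2FC -0.75, adjusted p = 0.0496) were called too.

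These calls also rested on few libraries. In edgeR's quasi-likelihood test that of NDRG1 was lost without EGF + EpEX 72 h replicate 1 or 2 (log2FC -1.48 and -1.45, adjusted p = 0.145 and 0.222) and without EGFhigh 72 h replicate 1 or 4 (log2FC -1.42 and -1.64, adjusted p = 0.145 and 0.0661). That of PKM was lost without EGF + EpEX 72 h replicate 1 or 2 (log2FC -1.02 and -0.92, adjusted p = 0.0701 and 0.142) and without EGFhigh 72 h replicate 1 (log2FC -0.84, adjusted p = 0.126). That of PFKP was lost without EGF + EpEX 72 h replicate 1, 2 or 3 (log2FC -0.98, -0.89 and -1.0001, adjusted p = 0.0873, 0.181 and 0.0757) and without EGFhigh 72 h replicate 1 (log2FC -0.67, adjusted p = 0.263). That of SLC16A3 was lost without EGF + EpEX 72 h replicate 1, 2 or 3 (log2FC -0.87, -0.59 and -0.80, adjusted p = 0.0533, 0.27 and 0.0684) and without EGFhigh 72 h replicate 1 (log2FC -0.36, adjusted p = 0.469). The EGFhigh libraries enter this comparison, the dose comparison and that with untreated cells, so the 3 results share them.

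Against Fc at 72 h, EGF + EpEX called no member and 0% of all genes in edgeR's quasi-likelihood test. At an unadjusted p under 0.05 there were 2 of 34 members and 601 of 15350 genes, and DESeq2 called 0 members. The smallest p values were those of PFKFB4, a kinase that sets the level of fructose 2,6-bisphosphate, at 9.01, 6.22 and 8.43 CPM against 1.21, 3.90 and 0.645 CPM (log2FC 2.04, adjusted p = 1), and of SLC2A3 (log2FC -2.01, adjusted p = 1). The PFKFB4 groups did not overlap, and the SLC2A3 groups did.

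At 6 h, EGF + EpEX was the Kyse30 treatment with called members, 2 higher and 1 lower than with Fc, where 4.52% (3.01% higher and 1.51% lower) of all genes were called. PFKP had 179.9, 222, 296 and 191 CPM with EGF + EpEX and 93.6, 98.3 and 85.4 CPM with Fc (log2FC 1.27 ± 0.26 SE, adjusted p = 0.00271 in edgeR's quasi-likelihood test). SLC16A3 had 399, 463, 562 and 297 CPM against 269, 263 and 268 CPM (log2FC 0.69 ± 0.20 SE, adjusted p = 0.0384). MXI1, a partner of MAX that opposes MYC and a HIF target, had 23.2, 18.8, 21.5 and 32.1 CPM against 56.8, 36.3 and 56.9 CPM (log2FC -1.06 ± 0.29 SE, adjusted p = 0.0258). None of the 3 genes overlapped between the groups.

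The call of PFKP was kept with any 1 library of the groups left out. In edgeR's quasi-likelihood test that of SLC16A3 was lost without EGF + EpEX 6 h replicate 1, 2 or 3 (log2FC 0.73, 0.70 and 0.53, adjusted p = 0.0511, 0.0697 and 0.147) and without Fc 6 h replicate 1, 3 or 4 (log2FC 0.74, 0.68 and 0.69, adjusted p = 0.107, 0.0963 and 0.117). That of MXI1 was lost without EGF + EpEX 6 h replicate 1, 2 or 3 (log2FC -1.04, -0.93 and -1.01, adjusted p = 0.0578, 0.0888 and 0.0615) and without Fc 6 h replicate 1 or 4 (log2FC -0.93 and -0.96, adjusted p = 0.136 and 0.116). With EpEX 72 h replicate 4 left out of the fit, NDRG1 (1.12, adjusted p = 0.0273) and BNIP3L, a mitophagy receptor (-0.73, adjusted p = 0.0308), were called as well.

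EGF alone at 6 h called no member. With EGFhigh, 2.55% of all genes were called, and 9 of 34 members against 2338 of 15350 genes had an unadjusted p under 0.05 in edgeR's quasi-likelihood test, while DESeq2 called 3 members. PFKP had 142, 206, 206 and 213 CPM with EGFhigh against 93.1, 110.3 and 108 CPM and just missed the threshold (log2FC 0.88 ± 0.26 SE, adjusted p = 0.0503). SLC16A1 had 465, 583, 489.8 and 512 CPM against 285, 395 and 249 CPM (log2FC 0.73 ± 0.22 SE, adjusted p = 0.0652). For both genes every treated library was above every untreated one. With EpEX 72 h replicate 4 left out of the fit, PFKP (0.89, adjusted p = 0.0108) and NDRG1 (1.33, adjusted p = 0.0131) were called. Calls over all genes then went from 391 to 373.

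EGFlow at 6 h had the same 2 members at its smallest p values, with 1.5% of all genes called. PFKP had 160.1, 196, 183 and 217 CPM with EGFlow (log2FC 0.86 ± 0.26 SE, adjusted p = 0.0773 in edgeR's quasi-likelihood test) and SLC16A1 556, 501, 513 and 490.4 CPM (log2FC 0.73 ± 0.22 SE, adjusted p = 0.081). NDRG1 had 208, 216, 168 and 380.5 CPM with EGFhigh and 230.5, 230.5, 168 and 309 CPM with EGFlow against 87.1, 100.4 and 105 CPM in untreated cells. All 8 EGF libraries exceeded all 3 untreated ones for NDRG1. NDRG1 (1.27, adjusted p = 0.0266) and PFKP (0.87, adjusted p = 0.0209) were called with EpEX 72 h replicate 4 left out of the fit. Both doses share the untreated libraries.

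The direct comparison of both doses at 6 h called no member and 0% of all genes in edgeR's quasi-likelihood test, with 0 of 34 members and 435 of 15350 genes at an unadjusted p under 0.05 and 0 members called by DESeq2. The smallest p values were those of VEGFA (log2FC 0.54, adjusted p = 1), at 46.9, 26.3, 32.4 and 20.998 CPM with EGFhigh and 27.6, 8.74, 28.1 and 22.1 CPM with EGFlow, and of EGLN3, a HIF prolyl hydroxylase that HIF itself induces (log2FC 0.96, adjusted p = 1), at 3.40, 2.99, 4.29 and 2.87 and 3.42, 0.933, 1.67 and 0.830 CPM. Both genes overlapped between the doses.

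EpEX alone at 6 h called no member, and 0.0261% of all genes. At an unadjusted p under 0.05 there were 3 of 34 members and 1451 of 15350 genes in edgeR's quasi-likelihood test, and DESeq2 called 0 members. ANKRD37, a small ankyrin-repeat gene known as a HIF target, had 2.04, 0.177 and 0 CPM with EpEX and 8.53, 3.57 and 2.81 CPM with Fc (log2FC -2.44, adjusted p = 0.304). ADM, which encodes the vasodilator peptide adrenomedullin, had 15.6, 16.8 and 20.3 CPM against 27.2, 46.8 and 47.4 CPM (log2FC -1.22, adjusted p = 0.348). Neither gene overlapped between the groups.

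At 72 h, replicate 4 of EpEX in Kyse30 carried the highest level of many members at once. It was the highest of all 43 Kyse30 libraries for 22 of 34 members (64.7%), against 2.15% of all 15350 genes tested, and for 13 of 27 (48.1%) other hypoxia-response genes. Replicates 1 and 2 of the same group were the highest library for 0 members. In replicate 4, 23 members were at least 2-fold above the mean of replicates 1 and 2, and the median fold over the 34 was 2.75.

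The members that stood out had several roles. BNIP3, a mitophagy receptor, had 338 CPM in replicate 4 against 69.6 and 49.7 CPM in replicates 1 and 2, and was 3.13-fold above the highest of the other 42 libraries. PFKFB4 had 26.4 CPM against 3.51 and 5.86 CPM, and its relative PFKFB3 152 CPM against 35.1 and 33.7 CPM. EGLN3 had 35.5 CPM against 1.45 and 3.97 CPM. These genes, with PDK1, which inhibits pyruvate dehydrogenase (46.7 CPM against 9.71 and 11.6 CPM), and P4HA1 (261 CPM against 60.5 and 66.3 CPM), are the 6 members at least 2-fold above each of the other 42 libraries.

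NDRG1 reached 1083 CPM in replicate 4 against 142 and 103 CPM, and LDHA 1423 CPM against 378 and 252 CPM. Not all members were high in it. SLC2A3 had 7.51 CPM against 14.0 and 66.4 CPM, and SLC16A3 299 CPM against 305 and 261 CPM. PFKL, the liver form of phosphofructokinase, had 58.6 CPM against 59.9 and 60.6 CPM.

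Further measures of this library follow. The members made up 1.46% of its counts against 0.663 and 0.642% in replicates 1 and 2. The share of reads that matched several places was 24.6%, the lowest of the 43 Kyse30 libraries, against 35.1 and 35.6%. Its total on genes, 5619747 counts, lay between theirs (4857486 and 8941267). Their part in the result was not tested.

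EpEX at 72 h called no member against Fc, and 0% of all genes, in edgeR's quasi-likelihood test. At an unadjusted p under 0.05 there were 12 of 34 members and 554 of 15350 genes, and DESeq2 called 0 members. The smallest p values were those of LDHA (log2FC 1.36, adjusted p = 0.882) and NDRG1 (log2FC 1.87, adjusted p = 0.882). The median log2FC of the members was 0.55 with replicate 4 and -0.11 without it, and without it 0 of 34 members had an unadjusted p under 0.05. Without EpEX replicate 2, 2 members were called, among 3 of all 15350 genes.

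**Figure D4:**
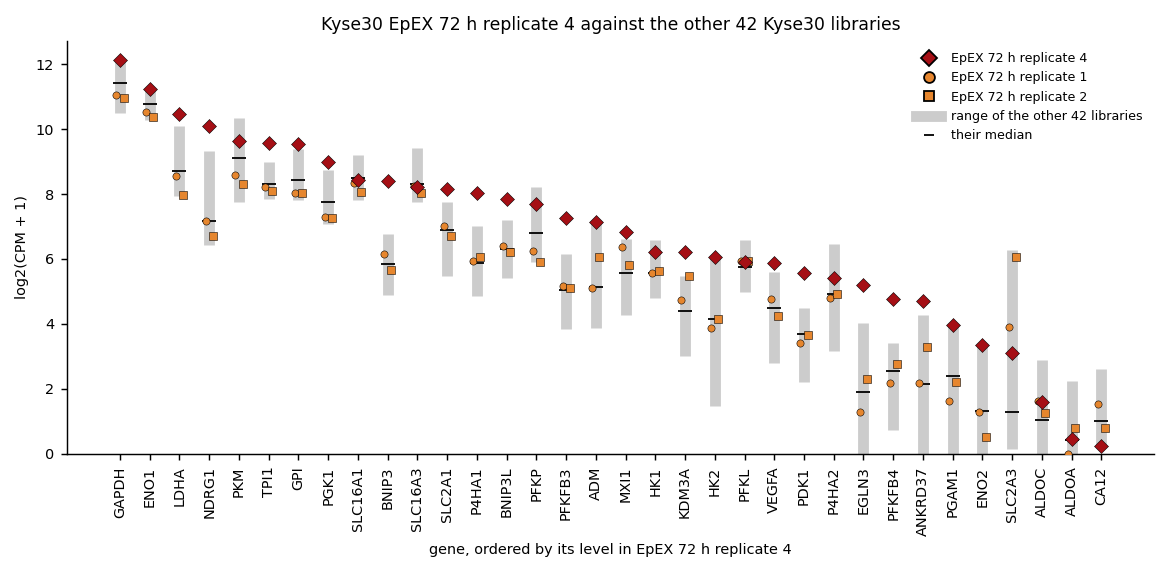
Level of 34 members as log2(CPM + 1) in Kyse30 EpEX 72 h replicate 4 (red diamonds) and replicates 1 and 2 (orange), over the range (grey bars) and median (ticks) of the other 42 Kyse30 libraries. A reader should see 22 diamonds above the grey bars.

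Over time in serum-free medium, SLC2A3 was the 1 member called in Kyse30 cells. Between 0 and 6 h, untreated Kyse30 cells had no called member and 0% of all genes called in edgeR's quasi-likelihood test, with 0 of 34 members and 355 of 15350 genes at an unadjusted p under 0.05 and 0 members called by DESeq2. The smallest p values were those of BNIP3L, from 64.9, 72.8 and 68.9 to 93.0, 90.5 and 83.6 CPM (log2FC 0.37, adjusted p = 1), and SLC2A3 (log2FC -1.34, adjusted p = 1). BNIP3L did not overlap between the times and SLC2A3 did.

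Between 6 and 72 h, PKM in untreated cells had 553, 677 and 596 and then 328, 302 and 326 CPM, without overlap, and missed the threshold (log2FC -0.93, adjusted p = 0.0584 in edgeR's quasi-likelihood test). It was called when EpEX 72 h replicate 4 was left out (-0.94, adjusted p = 0.0286). MXI1 had 40.1, 31.4 and 44.5 CPM at 6 h and 96.4, 68.9 and 62.2 CPM at 72 h (log2FC 0.97, adjusted p = 0.103), also without overlap.

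In FaDu cells, NDRG1 was the member that rose at 6 h. It had 26.9 and 44.4 CPM in untreated cells, 130.3 and 299.8 CPM with EGFhigh and 119 and 354 CPM with EGFlow. All 4 treated libraries were above both untreated ones. NDRG1 was called with EGFhigh (log2FC 2.59 ± 0.56 SE, adjusted p = 0.0139 in edgeR's quasi-likelihood test) and with EGFlow (log2FC 2.73 ± 0.57 SE, adjusted p = 0.00998), as 1 of 33 members each, where 3.06% (2.29% higher and 0.774% lower) and 3.45% (2.55% higher and 0.899% lower) of all genes were called. With EpEX it had 82.5 and 288 CPM against 38.3 and 44.5 CPM with Fc (log2FC 2.16 ± 0.55 SE, adjusted p = 0.0358), again 1 of 33 members, where 3.5% (2.45% higher and 1.04% lower) of all genes were called. These groups did not overlap either.

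The FaDu calls rest on 2 libraries a group. With EGFhigh the call of NDRG1 was lost without EGFhigh 6 h replicate 4 (log2FC 1.87, adjusted p = 0.164) and without untreated 6 h replicate 3 or 4 (log2FC 2.27 and 2.997, adjusted p = 0.223 and 0.0665) in edgeR's quasi-likelihood test. With EGFlow it was lost without EGFlow 6 h replicate 4 (log2FC 1.73, adjusted p = 0.199) and without untreated 6 h replicate 3 or 4 (log2FC 2.41 and 3.13, adjusted p = 0.178 and 0.055). With EpEX it was lost without EpEX 6 h replicate 4 (log2FC 0.99, adjusted p = 0.498) and without Fc 6 h replicate 3 or 4 (log2FC 2.06 and 2.27, adjusted p = 0.224 and 0.159), and also in DESeq2 (log2FC 2.16, adjusted p = 0.0616). In such fits the lone library of a group is assumed to vary like the other groups. With all 41 FaDu libraries in the fit NDRG1 was not called, and its log2FC was 1.44 with EGFhigh, 1.84 with EGFlow and -2.50 with EpEX. The single EGF + EpEX library at 6 h had 26.2 CPM (23.3 to 29.3), where the bracket is the exact 95% Poisson interval for counting error only.

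PFKP was not called in FaDu at 6 h. It had 243 and 195 CPM with EGFhigh, 208 and 193 CPM with EGFlow and 123 and 153 CPM in untreated cells. The treated libraries were above both untreated ones (log2FC 0.67, adjusted p = 0.0798 with EGFhigh and log2FC 0.54, adjusted p = 0.174 with EGFlow in edgeR's quasi-likelihood test). SLC2A1 had 97.7 and 129 CPM with EGFhigh against 217 and 174 CPM (log2FC -0.79, adjusted p = 0.112). Whether the EGFhigh effect at 6 h differed between the lines was tested as an interaction, which called no member of 34 and 0.0611% of all genes. The smallest p values were those of ADM (log2FC -1.40, adjusted p = 1) and VEGFA (log2FC 1.28, adjusted p = 1).

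VEGFA and ALDOC changed with time in FaDu cells with Fc, where 2.88% (0.974% higher and 1.91% lower) of all genes were called. VEGFA had 113 and 90.6 CPM at 6 h and 29.0 and 20.6 CPM at 72 h (log2FC -2.04 ± 0.27 SE, adjusted p = 0.000193 in edgeR's quasi-likelihood test), also called with any 1 library left out. ALDOC, the aldolase of brain, had 3.61 and 6.48 CPM at 6 h and 33.2 and 32.3 CPM at 72 h (log2FC 2.68 ± 0.49 SE, adjusted p = 0.0039). Neither gene overlapped between the times. The call of ALDOC was lost without Fc 6 h replicate 3 (log2FC 2.33, adjusted p = 0.0881). With all 41 FaDu libraries neither was called (log2FC -0.96 for VEGFA and 0.93 for ALDOC). The promoter window of ALDOC printed above holds 5 of the searched matches, with 1 CACGTG counted on both strands. Their part in this change was not tested.

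The FaDu groups of 1 library at 72 h are given as values without a test, with exact 95% Poisson intervals for counting error only. The EGFlow library is of replicate 3, and the untreated, EGFhigh and EpEX libraries are of replicate 4. Dose and replicate number cannot be told apart here. NDRG1 with EGF or EpEX alone at 6 h was higher in replicate 4 than in replicate 3. VEGFA had 21.7 CPM (19.1 to 24.6) in untreated cells, 20.04 CPM (16.9 to 23.6) with EpEX, 104 CPM (96.5 to 113) with EGFlow and 143 CPM (136 to 149.6) with EGFhigh. The level was higher in both EGF libraries than in the untreated and EpEX libraries. NDRG1 had 22.2 CPM (19.5 to 25.1) in untreated cells, 104 CPM (96.9 to 112) with EpEX, 96.6 CPM (89.1 to 105) with EGFlow and 362 CPM (352 to 373) with EGFhigh. ALDOC had 34.8 CPM (31.4 to 38.4) in untreated cells, 37.7 CPM (33.3 to 42.5) with EpEX, 20.9 CPM (17.5 to 24.7) with EGFlow and 10.6 CPM (8.83 to 12.5) with EGFhigh. ALDOC was lower in both EGF libraries than in the untreated and EpEX libraries. The control of EpEX is Fc and not the untreated library, so no effect of EpEX is read from these values.

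EGF + EpEX at 72 h, with 2 FaDu libraries, had 46.6 and 51.2 CPM of VEGFA against 29.0 and 20.6 CPM with Fc (log2FC 0.98, adjusted p = 0.132 in edgeR's quasi-likelihood test). PFKP had 147 and 150.3 CPM against 90.3 and 106 CPM (log2FC 0.60, adjusted p = 0.295). For both genes the treated libraries were above both controls. No member was called, where 0.818% of all genes were, and 6 of 33 members against 1086 of 16022 genes had an unadjusted p under 0.05. DESeq2 called 1 member.

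**Figure D5:**
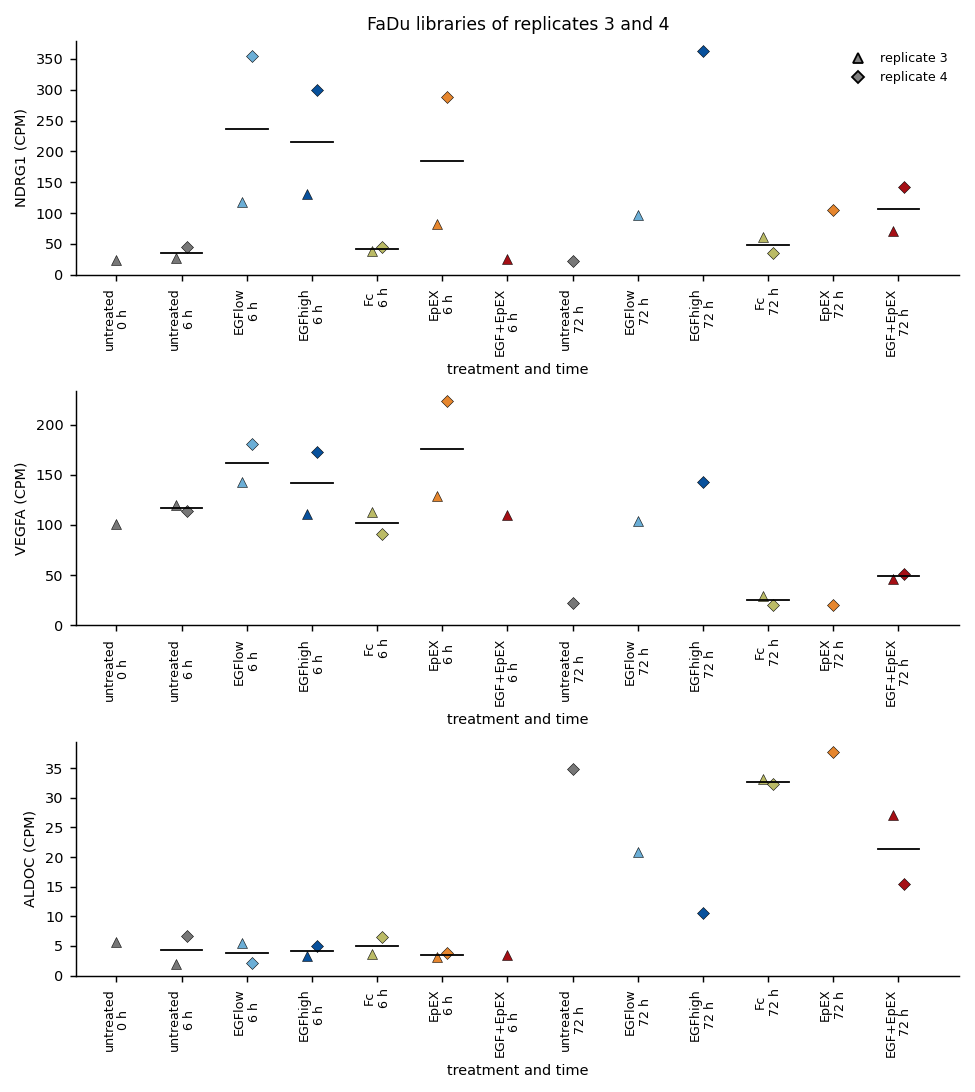
Levels in CPM of NDRG1, VEGFA and ALDOC in each FaDu library of replicates 3 and 4 by treatment and time, with lines at the means of groups of 2. A reader should see NDRG1 higher in the 6 h libraries with EGF or EpEX alone than in untreated and Fc libraries, and VEGFA lower and ALDOC higher with Fc at 72 h than at 6 h.

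The change of VEGFA with time in cells with Fc was also compared between the lines. VEGFA had 17.8, 6.91 and 10.5 CPM at 6 h and 18.8, 27.1 and 15.8 CPM at 72 h in Kyse30 cells. The interaction (Kyse30 minus FaDu) missed the threshold (log2FC 2.85 ± 0.72 SE, adjusted p = 0.0529 in edgeR's quasi-likelihood test) and was called with EpEX 72 h replicate 4 of Kyse30 left out (2.81, adjusted p = 0.0433). It called no member and 0.392% of all genes, and the next smallest p was that of SLC2A3 (log2FC 8.63, adjusted p = 0.192), which is near 0 in FaDu cells.

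Untreated cells of both lines were compared at 6 h in 1 fit, where 22.4% (12% higher and 10.4% lower) of all 19634 genes were called and, of 34 members, 5 were higher and 2 lower in Kyse30. The share of members called was close to that of all genes. VEGFA had a mean of 10.9 ± 6.11 CPM (SD, n = 3) in Kyse30 and 119 ± 4.82 CPM (SD, n = 2) in FaDu. Its log2FC was -3.47 (adjusted p = 3.31e-07 in edgeR's quasi-likelihood test). The lactate carriers were in opposite order. SLC16A1 was lower in Kyse30 (308 ± 75.9 against 677 ± 19.4 CPM, log2FC -1.13, adjusted p = 0.000309) and SLC16A3 higher (284 ± 15.7 against 125 ± 52.7 CPM, log2FC 1.19, adjusted p = 0.000632).

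ADM (log2FC 1.38, adjusted p = 0.0226 in edgeR's quasi-likelihood test), BNIP3 (log2FC 1.37, adjusted p = 0.0154), P4HA2, another collagen prolyl 4-hydroxylase subunit (log2FC 1.19, adjusted p = 0.0299), and GAPDH (log2FC 0.71, adjusted p = 0.0468) were also higher in Kyse30 cells. Levels did not overlap between the lines for any of the 7 genes. The calls of VEGFA and SLC16A1 were kept with any 1 library left out. That of SLC16A3 was lost without untreated 6 h of FaDu replicate 3 (log2FC 0.81, adjusted p = 0.105). That of ADM was lost without untreated 6 h of FaDu replicate 3 or 4 (log2FC 1.52 and 1.26, adjusted p = 0.102 and 0.168) and without untreated 6 h of Kyse30 replicate 3 or 4 (log2FC 1.22 and 1.29, adjusted p = 0.0729 and 0.0588). That of BNIP3 was lost without untreated 6 h of FaDu replicate 3 or 4 (log2FC 1.62 and 1.15, adjusted p = 0.0553 and 0.174) and without untreated 6 h of Kyse30 replicate 1 (log2FC 1.20, adjusted p = 0.0568). That of P4HA2 was lost without untreated 6 h of FaDu replicate 3 or 4 (log2FC 1.34 and 1.05, adjusted p = 0.107 and 0.203) and without untreated 6 h of Kyse30 replicate 1 (log2FC 1.04, adjusted p = 0.0915), and that of GAPDH without untreated 6 h of FaDu replicate 3 or 4 (log2FC 0.69 and 0.72, adjusted p = 0.21 and 0.17) and without untreated 6 h of Kyse30 replicate 3 or 4 (log2FC 0.73 and 0.58, adjusted p = 0.0672 and 0.166). With all 41 FaDu libraries in the fit, 1 member, VEGFA, was called and P4HA2 had a log2FC of -0.24.

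Among members called in no comparison, HK2, the inducible hexokinase, had 60.5, 47.9, 52.5 and 17.3 CPM with EGFhigh at 6 h and 23.5, 7.20 and 9.26 CPM in untreated Kyse30 cells (log2FC 1.75, adjusted p = 0.139 in edgeR's quasi-likelihood test), with overlap. PFKFB3 had 45.9, 53.6, 70.2 and 44.3 CPM against 22.2, 26.4 and 22.6 CPM (log2FC 1.17, adjusted p = 0.129), without overlap. KDM3A, a histone demethylase induced by HIF, ranged from 7.09 to 72.7 CPM in Kyse30, and HK1, the constitutive hexokinase, from 26.8 to 94.5 CPM.

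Other genes of the same pathways were followed in lists of 29 further hypoxia-response genes, 29 further glycolysis genes and 12 genes of the HIF machinery. With EGFhigh in Kyse30, 1 of 27 hypoxia-response genes tested rose and 0 fell at 6 h, and 1 rose and 0 fell at 72 h, where 2.55% and 6.2% of all genes were called. The gene was ANGPTL4, a secreted inhibitor of lipoprotein lipase and HIF target. It had 11.9, 12.3, 20.3 and 15.1 CPM with EGFhigh at 6 h against 0.869, 1.56 and 0.421 CPM (log2FC 3.93 ± 0.88 SE, adjusted p = 0.00968 in edgeR's quasi-likelihood test). At 72 h it had 14.2, 11.9 and 11.4 CPM against 1.86, 1.34 and 1.23 CPM (log2FC 3.04 ± 0.87 SE, adjusted p = 0.0246). All EGFhigh libraries were above all untreated ones at both times.

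ANGPTL4 also rose with EGFlow at 6 h in Kyse30 (log2FC 3.31, adjusted p = 0.0376 in edgeR's quasi-likelihood test), where the groups overlapped. In FaDu cells at 6 h it had 9.42 and 16.9 CPM with EGFhigh against 0.232 and 1.07 CPM (log2FC 4.32, adjusted p = 0.003), and it rose with EGFlow too (log2FC 3.85, adjusted p = 0.0071). With EGFhigh in FaDu, where 2.29% of all genes rose and 0.774% fell, 2 of 26 hypoxia-response genes rose, ANGPTL4 and ERO1A, an oxidase of the endoplasmic reticulum (log2FC 0.71, adjusted p = 0.042), and 1 fell, the small GTPase RAB20 (log2FC -2.25, adjusted p = 0.00108). None of these FaDu calls was kept with all 41 FaDu libraries in the fit.

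Among further glycolysis genes, 2 of 13 rose and 1 fell with EGFhigh at 72 h in Kyse30, where 3.04% of all genes rose and 3.16% fell. SLC2A12, a glucose transporter, had 30.8, 74.7 and 34.0 CPM against 15.7, 12.8 and 18.6 CPM (log2FC 1.56, adjusted p = 0.0455 in edgeR's quasi-likelihood test), opposite in direction to SLC2A3. PFKFB2, a kinase of the PFKFB family, rose (log2FC 1.25, adjusted p = 0.0155), and BPGM, which makes 2,3-bisphosphoglycerate, fell (log2FC -1.62, adjusted p = 0.0306). At 6 h, 0 rose and 0 fell with EGFhigh in Kyse30.

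In the HIF machinery, 1 of 11 genes rose and 1 fell with EGFhigh at 72 h in Kyse30, against the same 3.04% and 3.16% of all genes. ARNT2, a partner of HIF alpha subunits, had 0.465, 0.382 and 0 CPM in untreated and 22.4, 14.98 and 3.85 CPM in EGFhigh libraries (log2FC 5.40, adjusted p = 0.00367 in edgeR's quasi-likelihood test). CITED2, which competes with HIF for the coactivators CREBBP and EP300, fell (log2FC -2.18, adjusted p = 0.0339), though its groups overlapped. CREBBP fell with EGFhigh at 6 h (log2FC -0.66, adjusted p = 0.0315). In FaDu cells, EPAS1, which encodes HIF-2 alpha, rose between 6 and 72 h of Fc (log2FC 1.08, adjusted p = 0.0304). The further hypoxia-response genes called in that comparison all fell. They were STC2 (log2FC -2.66, adjusted p = 2.73e-06 in edgeR's quasi-likelihood test), VLDLR (log2FC -2.11, adjusted p = 0.00171) and LOXL2 (log2FC -2.05, adjusted p = 0.0379).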

How the data were processed

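RNA of Kyse30 and FaDu cells had been sequenced with QuantSeq 3′ mRNA-Seq FWD. For each library the authors deposited raw counts of reads per gene, as whole numbers without normalization, with tallies of reads given to no gene, which were left out of all fits. They were 6.23 to 16.1% without a gene and 24.6 to 43.6% with several places in Kyse30, and 6.52 to 10.8% and 41.0 to 51.3% in FaDu replicates 3 and 4. STAR, HTSeq, GRCh38 and hg38 stand in the submitters' processing notes, without versions.

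A symbol matched 57754 of 58395 gene rows. No library was identical to another of its group. Libraries were grouped by line, treatment and time. Genes passing filterByExpr (minimum count 10, minimum total 15) entered the quasi-likelihood test of edgeR (version 4.0.16, R version 4.3.3), with TMM factors and p adjusted over all genes tested by Benjamini-Hochberg, in 1 fit of 43 Kyse30 libraries (15350 genes), 1 of 20 FaDu libraries of replicates 3 and 4 (16022 genes) and 1 of both (19634 genes), so that groups share 1 estimate of the spread. The SE is the absolute log2FC over the square root of F. CPM used TMM-scaled library sizes of each line, and of the joint fit between lines. The study's own tests used DESeq2 with the same thresholds.

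The members, the gene lists and the use of FaDu replicates 3 and 4 were chosen with earlier results of these data known. All 35 members could be named, with full statistics for at most 8 called ones per comparison by absolute log2FC, and with the 2 of smallest p where none was called. Of further lists at most 3 called genes per comparison were named. Promoters were those of at most 5 members called most often among those with a match, ties in alphabetical order and chromosome 8 left out. Alternatives were DESeq2 1.42.0, RLE factors, TMM factors without the members, no filter on low counts, only the groups compared, a replicate block, all 41 FaDu libraries, and each library left out. Leaving out Kyse30 EpEX 72 h replicate 4 was added after the data had been seen. Of the tests, only edgeR's comparison of Kyse30 EGFhigh with untreated cells at 72 h was also run on simulated counts.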

Additional observations from a re-analysis of the deposited data

Results flagged for a closer look

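In the Kyse30 groups of 4 libraries, each member was searched for a library whose gap to its nearest neighbor was large for the range of its group, and 8 of 136 groups had one, where chance alone gives about 1 in 20. With EGFlow at 72 h, SLC2A3 was at 20.3 CPM in replicate 2 against 2.05 to 5.16 CPM in the others, PFKL at 57.0 CPM in replicate 2 against 73.9 to 77.2 CPM, and ANKRD37 at 2.54 CPM in replicate 3 against 8.13 to 8.25 CPM. With EGF + EpEX at 6 h, replicate 2 was high for BNIP3 (62.5 against 28.8 to 33.4 CPM), P4HA1 (57.5 against 31.3 to 34.6 CPM) and SLC16A1 (575 against 419.7 to 439 CPM). With EGFhigh at 6 h, PFKP was low in replicate 1 (142 against 206 to 213 CPM) and TPI1 high in replicate 4 (427 against 326 to 340.2 CPM). Groups of 3 libraries, EpEX at 72 h among them, were not searched.

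The log2FC of SLC2A3 with EGFhigh differed between 72 and 6 h in Kyse30, by -6.97 (adjusted p = 0.00635 in edgeR's quasi-likelihood test of the difference itself). It was lower in 3 of 3 EGFhigh libraries than in every untreated library at 72 h, and at 6 h the same contrast rests on 20 and 12 counts.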

How the results depend on the processing

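RLE factors and TMM factors without the members kept the direction and the call of all 33 member calls, and so did leaving out the low-count filter. DESeq2 kept 32, the fit with only the groups compared 23 and the fit without Kyse30 EpEX 72 h replicate 4 all 28 that involve Kyse30. Leaving out 1 library kept 119 of 195 and reversed none. With all 41 FaDu libraries 1 of 12 calls was kept, and NDRG1 with EpEX (-2.50) and P4HA2 between the lines (-0.24) changed sign.

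Counts of called members that moved by more than 1.5 times against the report are given here. Other moves, leaving out 1 library aside, were by at most 3 members. With DESeq2 they were 3 for Kyse30 EGFhigh at 6 h, 2 for EGFlow at 6 h, 2 for untreated 72 against 6 h, 2 for FaDu EGFhigh at 6 h, 1 for FaDu EGF + EpEX at 72 h and 2 for the Fc interaction. RLE factors gave 1 for Kyse30 EGFhigh at 6 h. Without Kyse30 EpEX 72 h replicate 4, chosen after seeing the data, they were 2 for EGFhigh and 2 for EGFlow at 6 h, 5 for EGF + EpEX at 6 h, 2 for untreated 72 against 6 h and 1 for the Fc interaction. With no filter they were, in Kyse30, 6, 5, 1 and 7 for EGFhigh, EGFlow, EpEX and EGF + EpEX at 6 h, 1 and 3 for EGFlow and EpEX at 72 h, 8 for EGF + EpEX against EGFhigh, 3 for 72 against 6 h both untreated and with Fc, and 2 for the EGFhigh effect between times. In FaDu they were then 4, 3 and 4 for EGFhigh, EGFlow and EpEX at 6 h, 3 for EGF + EpEX at 72 h and 4 for Fc, and 12 between the lines and 2 for the Fc interaction. With only the groups compared they were, in Kyse30, 6, 5 and 1 for EGFhigh, EGFlow and EGF + EpEX at 6 h, 1 for EGFhigh against EGFlow and 3 for EGF + EpEX against EGFhigh at 72 h, 3 for untreated 72 against 6 h and 2 for the EGFhigh effect between times, in FaDu 2 for EGFlow at 6 h and 2 for EGF + EpEX at 72 h, and 11 between the lines and 1 for the Fc interaction. With all 41 FaDu libraries they were 0 for EGFhigh, EGFlow and EpEX at 6 h and for Fc over time, and 1 between the lines. The cause of these moves was not tested.

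Leaving out 1 library at a time gave 0 to 1 called members for Kyse30 EGFhigh at 6 h, 1 to 3 for EGF + EpEX at 6 h, 3 to 6 for EGFhigh, 0 to 2 for EpEX, 0 to 5 for EGFhigh against EGFlow and 1 to 5 for EGF + EpEX against EGFhigh at 72 h, and 0 to 1 for the EGFhigh effect between times. In FaDu it gave 0 to 1 for EGFhigh, 0 to 1 for EGFlow and 0 to 2 for EpEX at 6 h and 1 to 2 for Fc over time, and it gave 2 to 5 between the lines and 0 to 1 for the Fc interaction.

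Same-numbered Kyse30 libraries did not deviate together in each pair (correlations -0.131 to 0.289). Their mean correlation was 0.0633, against -0.0216 for other numbers, and 38 of 43 Kyse30 libraries correlated best with their own number. In FaDu the means were 0.0713 and -0.0713, and 14 of 14 libraries compared correlated best with their own number. Deviations were taken from the group mean, which ties the mean for other numbers to that for the same number. In FaDu groups of 2 the deviations mirror each other, so the 2 means are 1 value with opposite signs. Both libraries of such a group give the same answer, so the 14 are not separate results. Libraries of 1 number thus shared a small part of their deviation. The main fits do not use the numbers, so their p-values leave this shared part in the spread. Whether the numbers pair cultures is not in the labels. A fit with the replicate number as a block called 4 members for Kyse30 EGFhigh and 2 for EGFlow at 6 h, 5 for EGF + EpEX at 6 h, 2 for untreated 72 against 6 h, 2 for FaDu EpEX at 6 h and 1 for the Fc interaction, and kept 29 of the 33 member calls. Its counts over all genes rose too, to 636, 417 and 1091 for EGFhigh, EGFlow and EGF + EpEX at 6 h in Kyse30. It also called ADM with EGFhigh against untreated cells (log2FC -1.12, adjusted p = 0.0363) and with EGF + EpEX against EGFhigh (log2FC 1.19, adjusted p = 0.0381) at 72 h.

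Counts over all genes also moved. In Kyse30 EpEX at 6 h had 4 called genes and 83 with DESeq2, 105 with no filter, 48 with the block and 9 with only its groups. EGFhigh at 6 h had 391 and 673 with DESeq2, EGFlow at 6 h 230 and 413, EGF + EpEX at 6 h 694 and 1112, or 209 with only its groups, EGF + EpEX against EGFhigh 550 and 846, untreated 72 against 6 h 238 and 479 and Fc 346 and 620, or 81 with only its groups. With only the groups compared, EGFhigh at 72 h had 502 instead of 951 and EGFhigh against EGFlow 241 instead of 573. Comparisons with 0 called genes had 5 to 13 with no filter. Without EpEX 72 h replicate 4 in the fit, EGFhigh, EGFlow and EGF + EpEX at 6 h had 373, 226 and 687. Calls over all genes thus fell slightly in these comparisons, where member calls rose. In FaDu, EGF + EpEX at 72 h had 131 and 207 with DESeq2, and Fc over time 462 and 699. The fit of all 41 FaDu libraries lowered the counts to 0 in the 5 FaDu comparisons, from 491, 553 and 560 for EGFhigh, EGFlow and EpEX at 6 h and from 131 and 462 for the other two, and from 4400 to 953 between the lines. Depth limits SLC2A3, ANKRD37, ALDOC and other genes near the floor of 3 counts.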

Other observations

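Beyond glycolysis, the gene of the listed pathways called most often was TXNIP, an arrestin-like protein that restrains glucose uptake and whose transcription follows glucose through MondoA. In Kyse30 it had 115, 50.2, 37.8 and 24.3 CPM with EGFhigh at 6 h against 425, 276 and 418 CPM in untreated cells, with no overlap (log2FC -2.74 ± 0.55 SE, adjusted p = 0.0034 in edgeR's quasi-likelihood test). It also fell with EGF + EpEX at 6 h (log2FC -2.25, adjusted p = 0.00931), and in untreated cells it rose between 6 and 72 h, to 1725, 1172 and 2616 CPM (log2FC 2.30, adjusted p = 0.0294). With EGFhigh at 72 h it was not called against untreated cells. TXNIP was called for the EGFhigh effect at 72 h minus that at 6 h (log2FC 3.19, adjusted p = 0.029 in edgeR's quasi-likelihood test). In FaDu it fell at 6 h with EGFhigh (log2FC -1.41, adjusted p = 0.000832), EGFlow (log2FC -1.31, adjusted p = 0.0013) and EpEX (log2FC -1.48, adjusted p = 0.000495) and at 72 h with EGF + EpEX (log2FC -0.98, adjusted p = 0.0355). None of these FaDu calls was kept with all 41 FaDu libraries in the fit, where no gene was called. Both EGF doses share the untreated libraries. Of the 5 MondoA-related genes, MLX, the partner of MondoA, rose with EGFhigh at 72 h in Kyse30 (log2FC 1.19, adjusted p = 0.00481).

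Of 28 genes of pyruvate entry and the citric acid cycle tested in Kyse30, 2 fell and 0 rose between 6 and 72 h of Fc, with a median log2FC of -0.64 against 0.033 for all genes, of which 2.25% were called (1.01% lower). They were SUCLG1, a subunit of succinyl-CoA ligase (log2FC -0.79, adjusted p = 0.0483 in edgeR's quasi-likelihood test), and MDH2, the mitochondrial malate dehydrogenase (log2FC -0.67, adjusted p = 0.0219). In untreated cells, where 1.55% of all genes were called, 2 fell, SUCLG1 (log2FC -0.88, adjusted p = 0.0289) and IDH3B, a subunit of isocitrate dehydrogenase (log2FC -0.94, adjusted p = 0.0338). With EGFhigh at 72 h, where 6.2% of all genes were called, 1 rose, PDP1, a phosphatase that activates pyruvate dehydrogenase (log2FC 1.505, adjusted p = 0.00431).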
